A study of Homo sapiens with 4 samples.

Results

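Cyclins and the cyclin-dependent kinases (CDKs) were examined in K562 cells, an established line from human chronic myeloid leukemia, with and without the fusion gene RUNX1::ERG. The group was defined by name: protein-coding genes whose whole symbol is CCN with 1 letter and optional digits, or CDK with digits and an optional A or B, which leaves out the CDKN inhibitors and the matricellular CCN genes. It held 48 of the 25702 genes counted, namely 27 cyclins and 21 CDKs. Both groups were K562 cells given plasmid by nucleofection, one with the empty LeGO-iG2 vector (n = 2) and the other with LeGO-iG2 carrying RUNX1::ERG (n = 2), and the vector co-expresses green fluorescent protein in both. No other treatment is recorded. Expression was transient, from 1 cell line. The paper states that its nucleofection protocol transfected most K562 cells, as measured by that fluorescence. Whether fluorescent cells were sorted before RNA extraction is not given in the sources used here, so untransfected cells may be part of each library. Poly(A) RNA was sequenced, and reads were counted per gene.

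A cyclin binds a CDK and switches its kinase on. Cyclins D and E with CDK4, CDK6 and CDK2 drive passage through G1 into S phase, cyclins A and B with CDK2 and CDK1 drive S phase and mitosis, and the levels of many of these cyclins rise and fall with the cycle. Another branch of the family, including CDK7, CDK8, CDK9, CDK12 and CDK13 with cyclins H, C, T and K, acts on RNA polymerase II and transcription. In blood cells, D-type cyclins are used in different mixtures by different lineages, and cyclin D3 is prominent in the erythroid and megakaryocytic branches to which K562 cells are related.

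The libraries held 59695387 to 82352144 counts. The fusion was visible in the counts, with 4 reads on ERG in each empty vector library and 80443 and 27218 in RUNX1::ERG replicates 1 and 2. Of 10 erythroid and hemoglobin markers, all passed the filter on low counts, and their summed level ran from 11500 to 11600 CPM (counts normalized to library size by TMM, the scale of every level given here) with the empty vector and from 12600 to 13900 with RUNX1::ERG. Of 7 lymphocyte markers, 4 were under the filter and MS4A1 was at 0 in every library. Megakaryocyte and platelet markers summed to 74.3 to 85.1 CPM with the empty vector and 429 to 491 with RUNX1::ERG, with GP1BB at 0 throughout. Empty vector replicate 1 stood apart in 12 ATF4 stress genes, which summed to 2980 CPM there and to 625 to 738 in the other libraries. The replicates of a group differed by far more than counting noise.

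Of the 48 genes, 45 passed the filter. CCND3, encoding cyclin D3, and CDK18, encoding a kinase of the PCTAIRE group, were higher with RUNX1::ERG, and CCND2, encoding cyclin D2, was lower. These were the 3 genes, 6.67% of the 45, with a Benjamini-Hochberg adjusted p under 0.05 by the quasi-likelihood test of edgeR over the 15394 genes tested, and 4.79% of all genes tested passed the same threshold. By direction, 2 of 45 members were higher against a background of 3.64%, and 1 of 45 was lower against 1.15%. The share of members called was thus near that of genes at large. The median log2 fold change was -0.04 over the members and 0 over all genes tested with a symbol. At an unadjusted p under 0.05, 7 members passed, 15.6% of the 45 against a background of 18.0%. The counts measure messenger RNA from whole cultures, in which fewer cells of a type and less RNA per cell cannot be told apart.

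**Figure D1:**
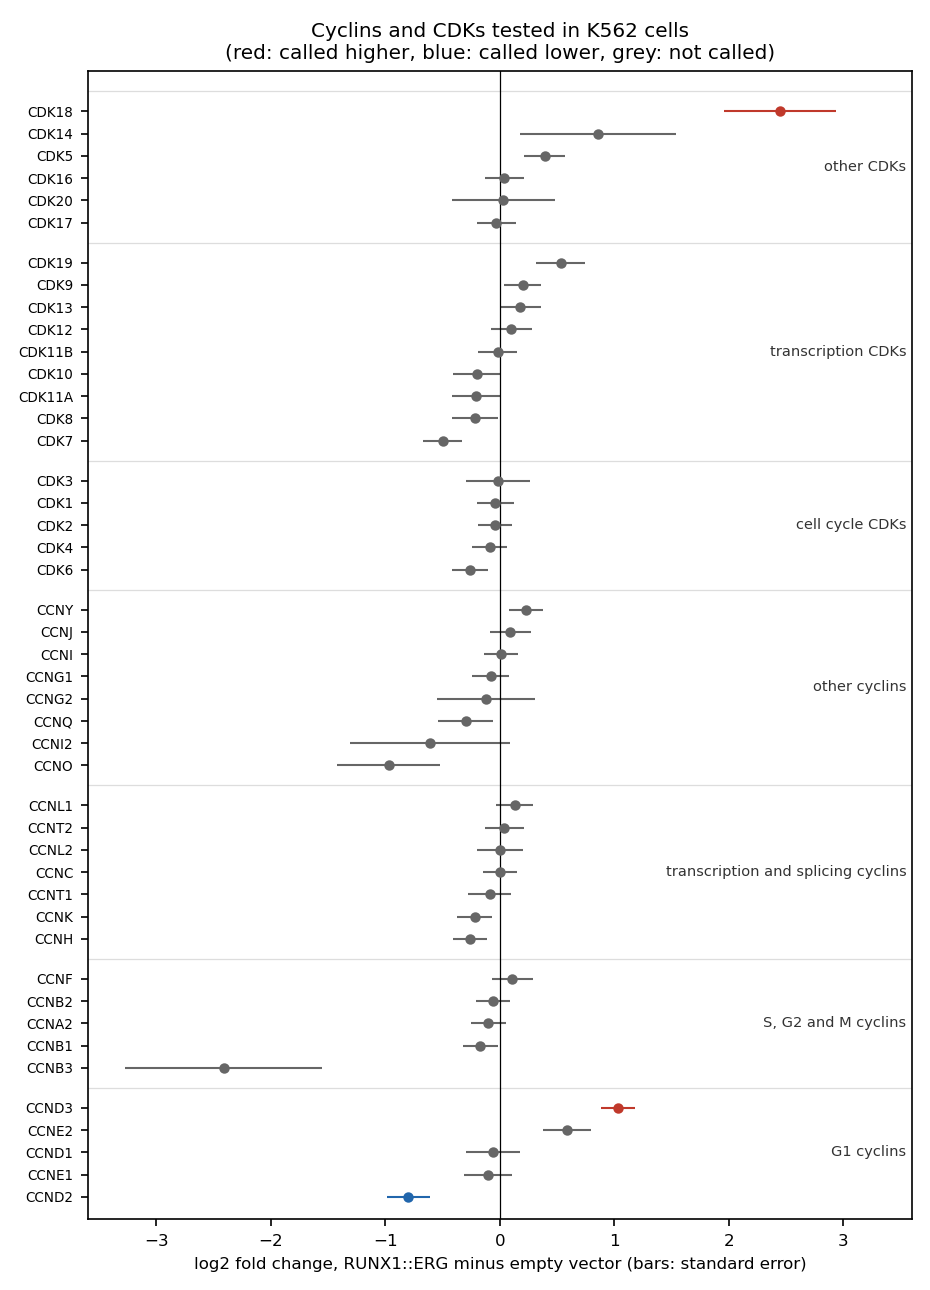
Log2 fold change of the 45 cyclins and CDKs tested, RUNX1::ERG minus empty vector, grouped by role, with bars of 1 standard error (n = 2 libraries per group). CCND3 (1.03) and CDK18 (2.45) are called higher, CCND2 (-0.80) is called lower, and 35 of the 45 values lie within 0.5 of zero. Over all genes tested with a symbol, 11088 of 14674 do.

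Regions just before the main transcript start were to be shown for the 3 called members. CCND2 is left out because the RefSeq promoter set used to pick genes lacked it, holding 44 of the 48 members. Ets and Runt motifs were searched because the fusion protein keeps a Runt and an Ets DNA-binding domain. The paper reports that the fusion lacks activation domains of its parents and could attenuate activation by RUNX1 and ERG. The regions shown are those of the 2 raised genes, CCND3 and CDK18. Each is the 250 bases before the start of the gene's main annotated transcript (the MANE Select transcript of GENCODE v44) on GRCh37, written 5′ to 3′ on the strand of the gene. Capitals mark GGAAG, the core of Ets sites, on either strand (CTTCC on the other strand), and would also mark TGTGGT or TGCGGT, the Runt motif, on either strand. CCND3 lies on the minus strand and its sequence is chr6:41909547-41909796. CDK18 lies on the plus strand and its sequence is chr1:205473547-205473796.
CCND3: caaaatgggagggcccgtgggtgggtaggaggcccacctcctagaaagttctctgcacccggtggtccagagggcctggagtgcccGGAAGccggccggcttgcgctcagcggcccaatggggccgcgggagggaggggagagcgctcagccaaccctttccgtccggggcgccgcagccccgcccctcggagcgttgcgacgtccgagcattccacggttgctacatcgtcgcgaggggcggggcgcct
CDK18: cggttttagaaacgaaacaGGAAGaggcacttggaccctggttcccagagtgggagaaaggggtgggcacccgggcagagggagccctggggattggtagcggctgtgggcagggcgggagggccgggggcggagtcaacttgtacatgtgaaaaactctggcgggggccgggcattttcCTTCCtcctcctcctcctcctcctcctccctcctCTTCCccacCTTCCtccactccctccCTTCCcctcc

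The CCND3 sequence held 1 Ets core, at 164 bases before the start, and the CDK18 sequence held 5. At least 1 Ets core stood in 67.0% of the same windows of 19811 protein-coding genes, so its presence is common. Neither sequence held a Runt motif, which 15.4% of the windows did. Neither held an E-box (CACGTG, 7.87% of windows), a cell cycle homology region (TTTGAA or TTCGAA, 11.3%) or an E2F motif (TTTCGCG or TTTGGCG, 3.36%), and each held 1 CCAAT box (34.3%). Motifs were read on both strands, and a match is a run of letters and not a measured binding site. Both genes have annotated starts further upstream, the outermost by 108549 bases for CCND3 and by 73 bases for CDK18, so the CCND3 window and the last 73 bases of the CDK18 window, with 4 of its 5 Ets cores, lie within the annotated gene. Which start these cells used was not measured.

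Among the G1 cyclins, CCND3 rose and CCND2 fell. CCND3 (NCBI gene 896, chromosome 6 of GRCh37, 41902672 to 42018095) was at 339 and 379 CPM in empty vector replicates 1 and 2 and at 787 and 678 in RUNX1::ERG replicates 1 and 2. The groups did not overlap, and the lowest RUNX1::ERG library stood well above the highest empty vector library. The mean rose from 359 ± 27.7 to 733 ± 77.6 (SD, n = 2), 2.04-fold, a log2 fold change of 1.03 ± 0.15 (SE, edgeR adjusted p = 0.0031). Megakaryocyte markers (5 of 6 tested called higher) and monocyte and granulocyte markers (2 of 4 tested called higher, summed level 8.72 to 11.0 CPM under the empty vector, 21.0 to 22.7 under RUNX1::ERG, CSF1R and ELANE under the filter) moved in the same comparison. The monocyte and granulocyte markers called were CD14 and LYZ, and LYZ made up most of their sum, at 6.97 and 9.90 CPM under the empty vector and 18.1 and 18.7 under RUNX1::ERG, while FCGR3B and MPO had log2 fold changes of -1.43 and -0.86 and were not called. So did 1 of 5 tested epithelial and fibroblast markers, COL1A1 (4.13 and 3.62 CPM under the empty vector, 22.0 and 19.6 under RUNX1::ERG, log2 fold change 2.42), while the summed level of that list was 243 to 285 and 230 to 234 CPM with CDH1 and COL3A1 under the filter. Of the 10 erythroid markers, TAL1 was called higher (log2 fold change 0.68, edgeR adjusted p = 0.025), and HBZ, at 966 and 1100 CPM under the empty vector and 753 and 615 under RUNX1::ERG, had a log2 fold change of -0.59 and missed the threshold (edgeR adjusted p = 0.05 after rounding). The summed lymphocyte markers, with 0 of 3 tested called, were at 35.0 to 36.3 and 22.9 to 25.1 CPM. The part of these markers in the results was not tested. The call held under each of the 12 other scalings, filters, tests and sets of libraries that kept the threshold, with log2 fold changes from 0.92 to 1.12 and adjusted p-values from 6.5e-08 to 0.02.

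CCND2 (NCBI gene 894, chromosome 12, 4378937 to 4414519) was at 48.3 and 36.8 CPM under the empty vector, against 25.4 and 23.3 with RUNX1::ERG. The groups did not overlap, with RUNX1::ERG the lower. Group means were 42.6 ± 8.13 and 24.4 ± 1.48 (SD, n = 2), a fall with a log2 fold change of -0.80 ± 0.19 (SE, edgeR adjusted p = 0.041). This call was close to the threshold and was lost without any 1 of 3 libraries: without empty vector replicate 1 the log2 fold change was -0.60 (adjusted p = 0.11), without RUNX1::ERG replicate 1 it was -0.87 (adjusted p = 0.1) and without RUNX1::ERG replicate 2 it was -0.75 (adjusted p = 0.11), all from edgeR. With libraries scaled by their totals it was -0.77 (adjusted p = 0.067). Over all such alternatives the adjusted p ran from 0.00071 to 0.11 and the direction stayed the same. Empty vector replicate 1, the higher of the control values, is the library in which the ATF4 stress genes were high, and the part of that in the result was not tested beyond the value without it. Exons of CCND2 overlap those of 3 other annotated genes, a protein-coding gene on the same strand (ENSG00000285901), whose reads no strand setting would separate, and 2 antisense genes, 1 of them CCND2-AS1. The strand setting of the counting is not given in the sources used here.

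CCND1, encoding cyclin D1, was at 19.6 and 29.7 CPM under the empty vector, against 26.7 and 20.5 with RUNX1::ERG. The groups overlapped, and the log2 fold change came to -0.06 ± 0.24 (SE, edgeR adjusted p = 0.94). Within each library the ratio of CCND3 to CCND2 counts needs no scaling between libraries, and it was 7.02 and 10.3 with the empty vector and 31.0 and 29.0 with RUNX1::ERG. CCND3 made up 83.3% and 85.0% of all D-type cyclin counts with the empty vector and 93.8% and 93.9% with RUNX1::ERG. Per base of exon the corresponding shares were 85.3%, 85.8%, 94.0% and 94.2%. CCND3 was thus the main D-type transcript in every library, and its share was higher in both RUNX1::ERG libraries. A test of 2 libraries against 2 by exact permutation cannot give a two-sided p below 0.333, so no p is given for these ratios.

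The E-type cyclins, partners of CDK2 at the entry into S phase, were not called. CCNE2, encoding cyclin E2, was at 17.9 and 25.2 CPM under the empty vector, against 30.9 and 33.8 with RUNX1::ERG. The groups did not overlap, but the log2 fold change of 0.59 (standard error 0.21) had an adjusted p of 0.16 from edgeR. Its adjusted p ran from 0.015 to 0.46 over the alternatives, and it passed without empty vector replicate 2, at a log2 fold change of 0.85, and with a replicate block. Without empty vector replicate 1, the library with high ATF4 stress genes, the value was 0.36 with an edgeR adjusted p of 0.46. CCNE1, encoding cyclin E1, was at 30.2 and 45.2 CPM under the empty vector, against 34.7 and 35.7 with RUNX1::ERG, a log2 fold change of -0.10 ± 0.21 (SE, edgeR adjusted p = 0.87). The values of CCNE1 with RUNX1::ERG lay between those with the empty vector. The ratio of CCNE2 to CCNE1 counts was 0.595 and 0.557 with the empty vector and 0.890 and 0.949 with RUNX1::ERG. Exons of CCNE2 overlap those of INTS8 on the other strand.

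**Figure D2:**
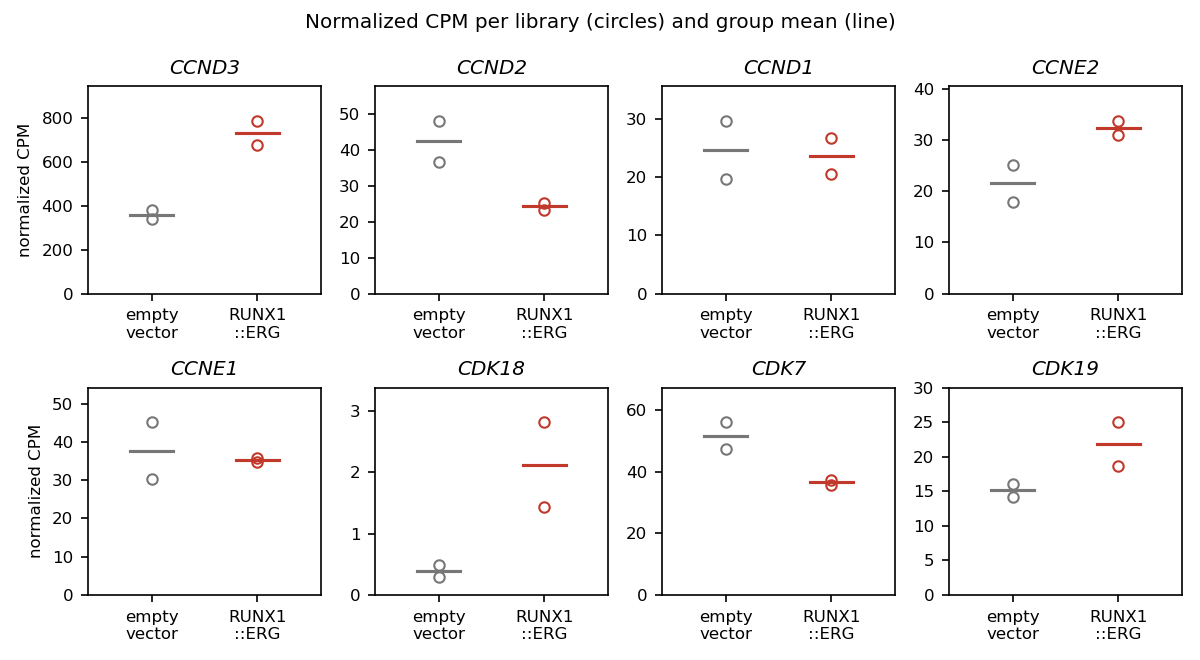
CPM of 8 members in each library (circles) with the group mean (line), n = 2 per group; each panel has its own axis from 0. The groups are apart for CCND3, CCND2, CCNE2, CDK18, CDK7 and CDK19 and overlap for CCND1 and CCNE1.

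None of the 5 tested cyclins of S, G2 and M phase passed the threshold. CCNB1, encoding cyclin B1 of the mitotic kinase, was at 236 and 275 CPM under the empty vector, against 220 and 234 with RUNX1::ERG, a log2 fold change of -0.17 ± 0.15 (SE, edgeR adjusted p = 0.63). The 2 groups of CCNB1 came close without overlapping. CCNA2, encoding cyclin A2 of S and G2 phase, had a log2 fold change of -0.10 (standard error 0.15), CCNB2, a second mitotic B-type cyclin, one of -0.06 (standard error 0.15) and CCNF, an F-box protein that marks substrates for destruction, one of 0.11 (standard error 0.18). Their groups overlapped. CCNB3, a cyclin known from meiosis, had 12 and 16 counts with the empty vector and 2 and 4 with RUNX1::ERG. At this depth its log2 fold change of -2.41 had a standard error of 0.86 and an adjusted p of 0.16 from edgeR. CCNA1, a cyclin of the germ line and some leukemias, had at most 4 counts in a library and was not tested.

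The CDKs of the cell cycle were likewise without a call. CDK4 was at 285 and 324 CPM under the empty vector, against 276 and 298 with RUNX1::ERG, a log2 fold change of -0.09 ± 0.15 (SE, edgeR adjusted p = 0.84). CDK1, the mitotic kinase, had a log2 fold change of -0.04 (standard error 0.16) and CDK2 one of -0.04 (standard error 0.15). For these 3 genes the groups overlapped. CDK6, the second partner of D-type cyclins, was at 156 and 161 CPM under the empty vector, against 119 and 147 with RUNX1::ERG. Its groups did not overlap, but the log2 fold change of -0.26 (standard error 0.16) had an adjusted p of 0.47 from edgeR. CDK3 was the least abundant of the 5 per length, with a log2 fold change of -0.02 (standard error 0.28). Reads on CDK3 can also come from the readthrough gene TEN1-CDK3, and CDK4 overlaps TSPAN31 on the other strand.

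Of the 9 CDKs of transcription, none passed the threshold, and the lowest and highest log2 fold changes were those of CDK7 and CDK19. CDK7, which with cyclin H and MNAT1 activates other CDKs and phosphorylates RNA polymerase II, was at 56.2 and 47.3 CPM under the empty vector, against 35.8 and 37.4 with RUNX1::ERG. The groups did not overlap, with RUNX1::ERG the lower. The log2 fold change was -0.50 (standard error 0.17), with an unadjusted p of 0.015 and an adjusted p of 0.14 from edgeR, which ran from 0.054 to 0.46 over the alternatives. CCNH, its cyclin, was at 74.0 and 73.5 CPM under the empty vector, against 61.7 and 61.0 with RUNX1::ERG, a log2 fold change of -0.26 ± 0.15 (SE, edgeR adjusted p = 0.42). The third subunit, MNAT1, had a log2 fold change of 0.02 (standard error 0.18) and overlapping groups. None of the 3 genes of this complex was called.

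CDK19 and CDK8 are alternative kinases of the Mediator complex and use the same cyclin, cyclin C. CDK19 was at 16.1 and 14.2 CPM under the empty vector, against 18.6 and 25.0 with RUNX1::ERG, a log2 fold change of 0.53 (SE 0.21, edgeR unadjusted p = 0.032 and adjusted p = 0.22). Without RUNX1::ERG replicate 2 the value was 0.28 with an edgeR adjusted p of 0.78. CDK8 was at 28.1 and 32.5 with the empty vector, against 22.8 and 29.0 with RUNX1::ERG, a log2 fold change of -0.22 ± 0.20 (SE, edgeR adjusted p = 0.62). The ratio of CDK19 to CDK8 counts was 0.573 and 0.435 with the empty vector and 0.813 and 0.861 with RUNX1::ERG. Neither gene was called, and how often ratios of other gene pairs separate the groups was not computed. CCNC, encoding cyclin C, had a log2 fold change of 0 (standard error 0.15), with CPM from 84.6 to 85.9 over the 4 libraries.

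CDK9, the kinase of the elongation factor P-TEFb, was at 74.6 and 77.9 CPM under the empty vector, against 93.5 and 81.8 with RUNX1::ERG, a log2 fold change of 0.20 ± 0.16 (SE, edgeR adjusted p = 0.58). Its cyclin gene CCNT1 had a log2 fold change of -0.09 (standard error 0.19) and overlapping groups. All 7 transcription and splicing cyclins lay within 0.5 of zero on the log2 scale, from -0.26 for CCNH to 0.13 for CCNL1, and so did 7 of the 9 transcription CDKs. Of all genes tested with a symbol, 11088 of 14674 lay within the same limits. CDK11A and CDK11B are near-identical copies side by side on chromosome 1, so the split of reads between them is uncertain. Their log2 fold changes were -0.21 and -0.02. CCNL2, a cyclin of the CDK11 kinases that acts in splicing, was the highest of its group per exon length, at 139 and 113 CPM under the empty vector, against 150 and 103 with RUNX1::ERG, with a log2 fold change of 0.00 ± 0.20 (SE). CCNK, the cyclin of CDK12 and CDK13, was at 97.8 and 94.9 CPM under the empty vector, against 84.8 and 80.4 with RUNX1::ERG, and its log2 fold change of -0.22 had an edgeR adjusted p of 0.51. CDK12 and CDK13 had values of 0.10 and 0.18, and CDK10 and CCNT2 had -0.20 and 0.04, all 4 with overlapping groups.

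CDK18 (NCBI gene 5129, chromosome 1, 205473724 to 205501921), of the same kinase group as CDK16 and CDK17, had the largest rise of all members. It had 29 and 21 counts with the empty vector and 238 and 103 with RUNX1::ERG, which is 0.482 and 0.298 CPM against 2.82 and 1.43. The groups did not overlap, and the 2 RUNX1::ERG libraries differed from each other by more than the empty vector libraries did. The log2 fold change came to 2.45 ± 0.49 (SE, edgeR adjusted p = 0.017). Without RUNX1::ERG replicate 1, the library with more reads on ERG, it was 1.88 with an adjusted p of 0.18 from edgeR, and over all alternatives the adjusted p ran from 1.5e-06 to 0.18. Even after the rise the level was low, at 0.312 CPM per kilobase of exon against 18.5 for CDK16.

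The other kinases and cyclins outside the cycle were not called. CDK16 and CDK17 had log2 fold changes of 0.04 and -0.03 with standard errors of 0.17. CDK5, a kinase best known from neurons, was at 23.7 and 25.8 CPM under the empty vector, against 31.6 and 33.1 with RUNX1::ERG, and its log2 fold change of 0.39 (standard error 0.18) had an adjusted p of 0.28 from edgeR. CDK14 had 10 and 8 counts against 25 and 15. CDK15 had no count in any library. A limit of 3 counts would be 0.0356 to 0.0498 CPM per library, for counting error only, and is too low if both mates of a read pair were counted. CCNO, a cyclin needed for multiciliated cells, had 80 and 74 counts against 61 and 35, a log2 fold change of -0.97 ± 0.45 (SE, edgeR adjusted p = 0.29). CCNY, a membrane-bound cyclin that works with CDK14 and CDK16, had the highest log2 fold change of the other cyclins, 0.23 ± 0.15 (SE), and was not called. CCNG1, a target of p53, had a log2 fold change of -0.08 (standard error 0.16) and was the most abundant of that group. CCNP had 4 to 13 counts in a library and was not tested. The remaining cyclins CCNG2, CCNI, CCNJ and CCNQ had overlapping groups and log2 fold changes of -0.12, 0.01, 0.09 and -0.30, and CCNI2, with 7 to 16 counts in a library, had -0.61. CDK20 had 46 to 68 counts and a log2 fold change of 0.03. CDK5, CDK14, the CDK11 pair and CCNK were picked for description after their values were seen.

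By level per exon length with the empty vector, the order was led by CCNB1, at 105 CPM per kilobase, and CDK4, at 98.5, followed by CCNA2 at 78.0, CCND3 at 62.3 and CDK1 at 57.7. With RUNX1::ERG, CCND3 stood first at 127, before CCNB1 at 93.2 and CDK4 at 92.8. CCND1, CCND2 and CCNE2 were near each other with the empty vector, at 5.18, 5.33 and 4.90 CPM per kilobase, and the replicates of CCND1 spread further than the gaps between the 3 genes. With RUNX1::ERG the order of the 3 was CCNE2 at 7.36, CCND1 at 4.97 and CCND2 at 3.05. The lengths are those of all annotated exons of a gene, and with the longest transcript in their place CCND3 was at 150 and CDK4 at 163 with the empty vector, so ranks between genes depend on the length used.

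**Figure D3:**
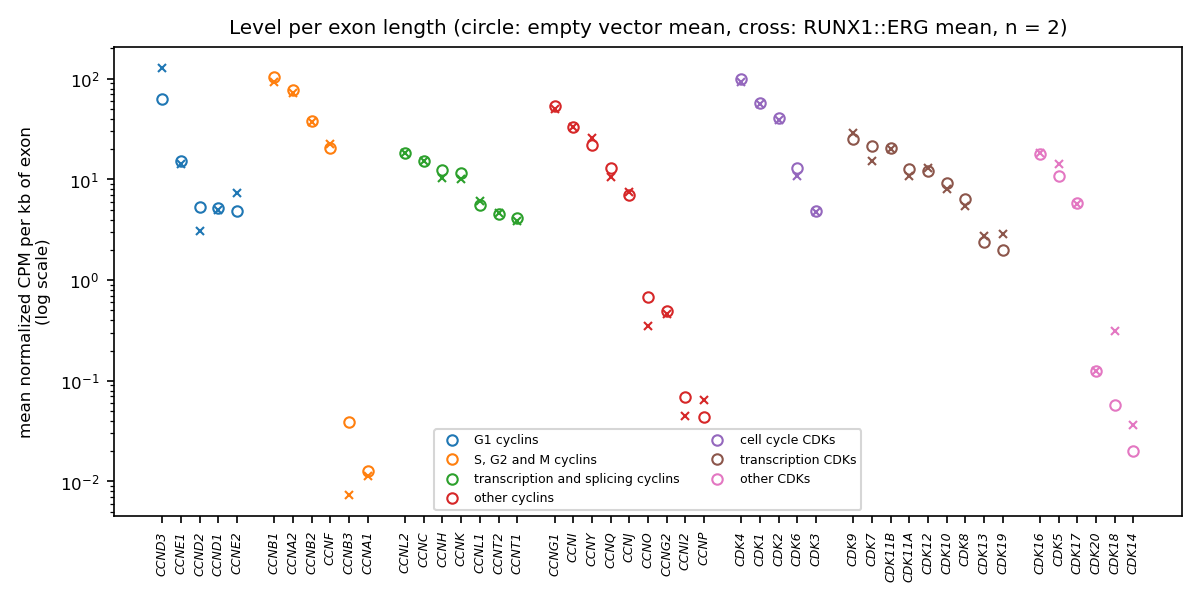
Mean CPM per kilobase of exon (log axis) for the 47 members with any count, by role, with circles for the empty vector and crosses for RUNX1::ERG (n = 2 each). CCND3 goes from 62.3 to 127 and becomes the highest of all, while CDK18 stays low after its rise, at 0.312.

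Across the family, replicates differed by a median of 0.20 on the log2 scale with the empty vector and 0.22 with RUNX1::ERG, against 0.26 and 0.23 over all genes tested. Both RUNX1::ERG libraries lay above both empty vector libraries in 9 of the 45 members (20.0%, background 25.1%) and below in 9 (20.0%, background 22.1%). Both shares were near those of all genes tested, if slightly lower, and the difference was not tested.

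**Figure D4:**
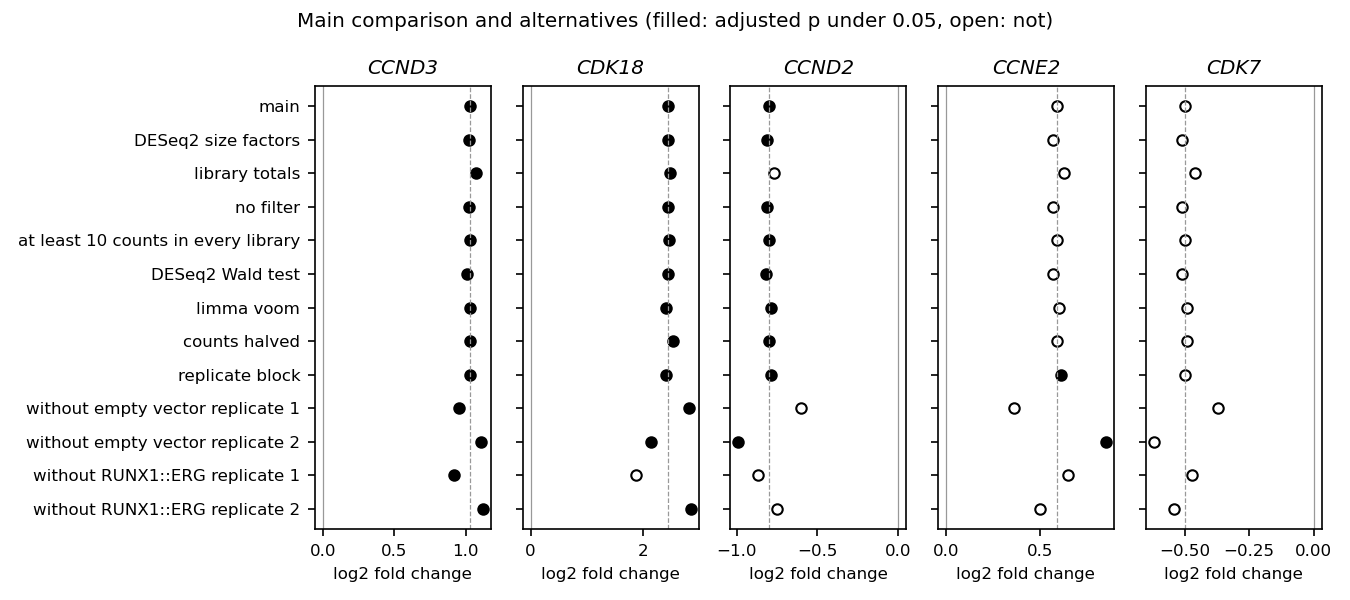
Log2 fold change of 5 members in the main comparison and under 12 alternatives, filled where the adjusted p is under 0.05; the dashed line is the main value. CCND3 is filled throughout, CDK18 in all but 1 alternative, and CCND2 is open in 4.

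Genes that act on cyclins and CDKs were listed by function, 45 in all, and 41 passed the filter. Of these 3 (7.32%) were higher, against the background of 3.64%, and 0 were lower by edgeR's adjusted p, against 1.15%. At an unadjusted p under 0.05 in either direction there were 10 of 41 (24.4%), against 18.0% of all genes tested. CDKN1A, an inhibitor of CDK2 complexes, was at 26.2 and 24.6 CPM under the empty vector, against 106 and 76.3 with RUNX1::ERG, a log2 fold change of 1.84 ± 0.19 (SE, edgeR adjusted p = 0.00049). CDKN2D, an inhibitor of the CDK4 and CDK6 kinases that D-type cyclins activate, was at 6.14 and 4.54 with the empty vector, against 16.7 and 14.0 with RUNX1::ERG, a log2 fold change of 1.52 ± 0.24 (SE, edgeR adjusted p = 0.0060). The 6 tested inhibitor genes had log2 fold changes from 0.04 to 1.84, and CDKN2A and CDKN2B had no count in any library. CABLES2, an adaptor that binds CDKs, was at 10.8 and 16.0 CPM under the empty vector, against 26.8 and 27.0 with RUNX1::ERG. Its log2 fold change was 1.00 ± 0.22 (SE, edgeR adjusted p = 0.030). Without RUNX1::ERG replicate 1 its call was lost, although the log2 fold change was again 1.00. Over the alternatives the log2 fold change ran from 0.74, without empty vector replicate 1, to 1.31. The 8 tested assembly and adaptor genes had log2 fold changes from -0.71 to 2.46 with a median of -0.04, and their summed level was 590 to 600 CPM under the empty vector and 476 to 522 under RUNX1::ERG. Apart from CABLES2 none was called, including CDK5R2, an activator of CDK5 (2.46, edgeR adjusted p = 0.10), CDC37, a chaperone partner of kinases (-0.41, adjusted p = 0.18), and CKS2, a small CDK-binding protein (-0.40, adjusted p = 0.20), which were picked after their values were seen.

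None of the 5 inhibitory kinases and CDC25 phosphatases passed, with log2 fold changes of -0.06 for WEE1 (standard error 0.17), which blocks CDK1, and -0.12 for CDC25A (standard error 0.20), which releases CDK2. The same held for the 10 genes of cyclin destruction, from -0.33 to 0.37, for 3 tested genes of the Mediator kinase module, from 0.11 to 0.29, and for 9 genes that control P-TEFb, from -0.15 to 0.40.

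**Figure D5:**
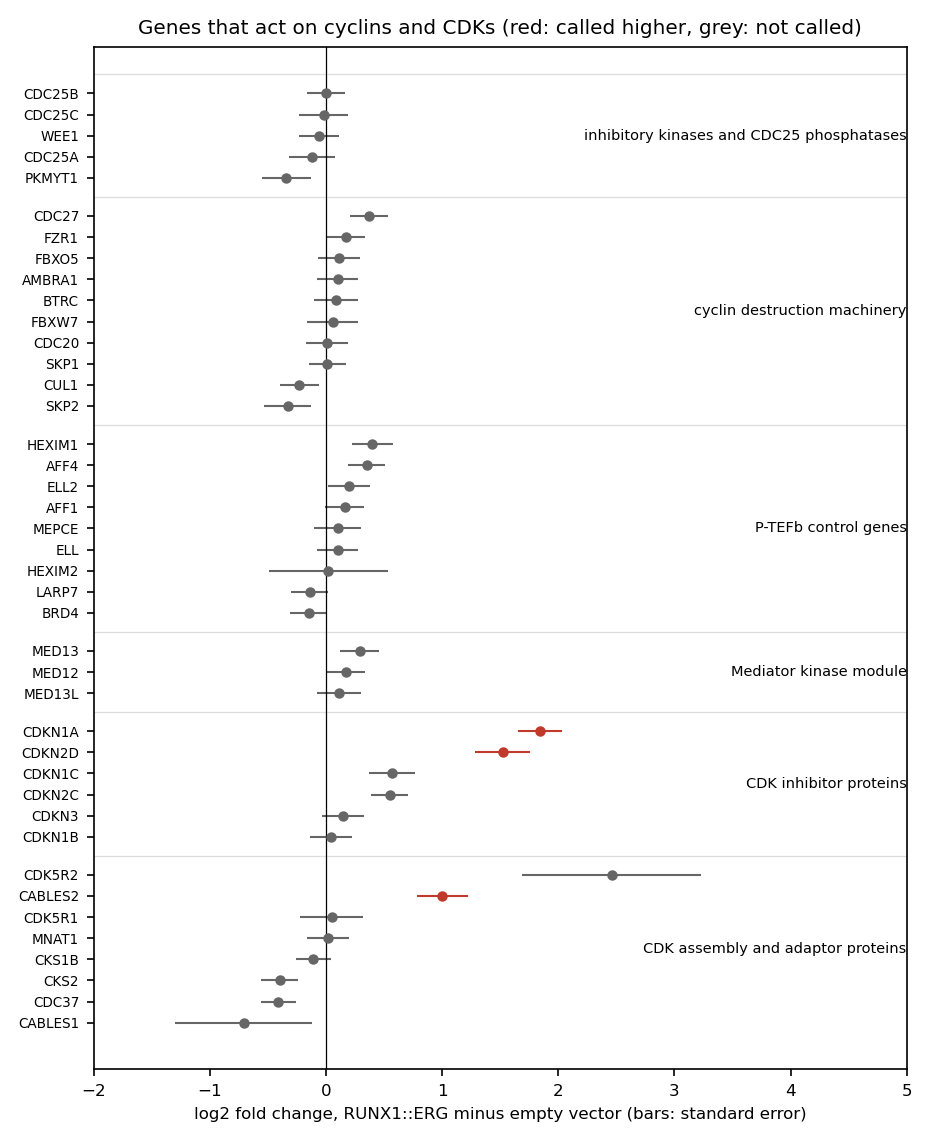
Log2 fold change, RUNX1::ERG minus empty vector, of the 41 tested genes that act on cyclins and CDKs, with bars of 1 standard error (n = 2 per group). CDKN1A (1.84), CDKN2D (1.52) and CABLES2 (1.00) are called higher and no gene is called lower.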

How the data were processed

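The study ran WTS of poly(A) RNA on 2 biological replicates per construct. Raw gene-level counts were deposited by the authors for each library under NCBI gene numbers. Their notes name HISAT2 2.2.1, featureCounts 2.0.1 and hg19. The annotation, strand setting and treatment of read pairs are not given in the sources used here. Of counts from 1 to 10, 66.7% to 68.9% were even. Limits that take 3 counts as the floor cover counting error only, and would be too low if both mates of a pair were counted, which was not tested.

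Symbols came from a RefSeq gene table (92.2% of 25702 genes matched), and positions, exon lengths and promoters from GENCODE v44 on GRCh37. Analysis used R 4.3.3 and edgeR 4.0.16 (TMM scaling, filter on low counts, quasi-likelihood test, Benjamini-Hochberg adjustment, threshold 0.05). The standard error was the log2 fold change over the square root of F. The alternatives were other scalings and filters, DESeq2 1.42.0, limma 3.58.1 voom, a fold change minimum, halved counts, a replicate block, and leaving out each library, where the lone library of an arm is assumed to vary like the other group.

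Members, role lists and the list of CDK control genes were chosen with earlier results of these data known. Named members were those called or with an unadjusted p under 0.05, a fixed core of cell cycle and transcription genes, and the extremes of level and change in each role group. Among control genes they were those called, with WEE1, CDC25A and CDKN1A.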

Additional observations from a re-analysis of the deposited data

How the results depend on the processing

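CCND3 was called under every alternative run. CCND2 lost its call with library totals (-0.77), with a minimum log2 fold change of 1 (-0.80, by construction) and without any library but empty vector replicate 2, and CDK18 lost it without RUNX1::ERG replicate 1. CABLES2, at 1.00, lost it under the fold minimum as well. With library totals, CDK17 (0.01) and CDK3 (0.03) changed sign and the median of the members was 0. Only the scaling differs in that setting, and the median of all genes tested moved as well, from 0 to 0.04. Among the values of the tested named genes under alternatives that kept all libraries, 289 kept direction and side of the threshold, 3 were weaker, 1 was stronger and 2 changed sign. CCNC and CCNL2, at 0.00, were left out of these counts, and their values fell on either side of zero.

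The number of all genes called was 737, and 1500 without a filter, 1204 with DESeq2 and 1733 with the replicate block. Genes called lower numbered 177 in the main comparison, 103 with library totals and 651 with the replicate block. Genes called higher numbered 560, 515 and 1082 in the same order. The background shares by direction thus depend on the setting. With the replicate block, 4 members were called, CCNE2 (0.61) with the same 3 as before, and 5 of the CDK control genes, the added ones being CDC37 and CDKN2C. Deviations from the group means had a correlation of 0.271 between libraries of one number. No label ties a number to a shared batch, and the samples were not treated as pairs.

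With each library left out in turn, the members called ranged from 1 to 4, all genes called from 354 to 1355, CDK control genes called from 2 to 3 and the median log2 fold change of members from -0.06 to -0.01. CCNL2 ran from -0.29 to 0.24 and CCNC from -0.02 to 0.01. Other values near zero changed sign: CCNB2 ran from -0.15 to 0.01, CCND1 from -0.33 to 0.27, CCNE1 from -0.36 to 0.22, CCNF from -0.10 to 0.37, CCNG1 from -0.20 to 0.04, CCNT1 from -0.24 to 0.03, CDK1 from -0.18 to 0.07, CDK2 from -0.14 to 0.03, CDK3 from -0.46 to 0.31, CDK4 from -0.18 to 0.01, CDK16 from -0.15 to 0.20, CDK17 from -0.11 to 0.07, CDC25A from -0.38 to 0.20 and WEE1 from -0.20 to 0.08. CDK6 (-0.43 to -0.11), CDK8 (-0.42 to -0.06), CDK9 (0.10 to 0.28), CDK19 (0.28 to 0.73), CCNA2 (-0.17 to -0.05), CCNB1 (-0.28 to -0.06), CCNE2 (0.36 to 0.85) and CCNL1 (0.08 to 0.17) kept their sign but varied widely in size. With 2 libraries per group, changes as small as the standard errors given could not be detected.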
